A study of Mus musculus with 9 samples.

Results

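Cajal-Retzius neurons are among the earliest neurons of the cerebral cortex. They lie at its surface, below the meninges, and come mainly from the cortical hem, the septum and other borders of the pallium. They secrete reelin, a large extracellular protein that binds receptors of the low-density lipoprotein family on radial precursors and migrating neurons, and that orders the layers of the cortex. The 8 genes described here are Reln, which encodes reelin, the transcription factor genes Trp73, Lhx1, Lhx5, Ebf2 and Ebf3, and Calb1 and Calb2, which encode the calcium-binding proteins calbindin and calretinin. They were taken by name from the deposited table, 8 of 22180 genes with a symbol of their own, and each gene was read from its row with the highest mean over all arrays.

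The question was which of these transcripts came down with Pum2, a Pumilio-family protein that binds mRNAs, mostly in their 3′ untranslated regions, and represses their translation. The tissue was cortex of CD1 mouse embryos, wild type, taken at embryonic days 12 to 13. It was measured after precipitation with a rabbit antibody to Pumilio2 (Pum2, 3 arrays), after precipitation with normal rabbit IgG, which shows what the method holds without a specific antibody (IgG, 3 arrays), and as total RNA without any antibody (input, 3 arrays). All values are log2 signals of the Mouse Gene 2.0 ST array, so that a difference of 1 is a doubling. The arrays were normalized, so differences compare signals relative to the other transcripts on an array, not amounts of RNA. Precision is limited by having 3 arrays per group. The sources used here do not give how many embryos made up a replicate. In RNA from such mixed tissue, fewer cells of a type and less RNA per cell cannot be told apart.

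Trp73 and Calb2 were the members higher with Pum2 than with nonspecific IgG, Trp73 by 1.78-fold. Calb2 was 2.17-fold higher after its IgG signal, which lay near the dim end of the array, was raised to that level. That value does not allow for the spread between arrays. Reln, Ebf2 and Ebf3 exceeded input in the Pum2 precipitate, but their signal was above input in the IgG precipitate as well. Their difference between Pum2 and IgG did not pass the test. Of the 8 genes, 2 were higher and 0 lower in Pum2 than in IgG, where 19.4% of all genes were higher and 11.4% lower (limma, adjusted p under 0.05). All 8 differences were above 0, so none was lower at an unadjusted p under 0.05 either. In Pum2 over input 6 were higher and 0 lower, where 21.6% of all genes were higher and 13.1% lower, and here too all 8 differences were above 0. In IgG over input 3 were higher and 1 was lower, where 8.25% and 9.72% of all genes were. The 8 genes had a median difference of 0.17 from IgG and 0.56 from input in the Pum2 precipitates, where all genes had 0.04 and 0.07. In IgG over input it was 0.24 for the 8 genes and 0.02 for all genes. Pum2 over IgG shares arrays with each of the other comparisons, so the counts are not independent of each other. With 8 genes, a share of 2 in 8 is close to the background of all genes in the first comparison. But 7 of the 8 were at or above the median signal. Of the 11090 such genes, tested alone, 4344 were higher and 2330 lower in Pum2 over IgG, so the share of higher genes was larger than 2 in 8. In Pum2 over input 4555 of them were higher and 2699 lower, and in IgG over input 2086 and 2532.

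**Figure D1:**
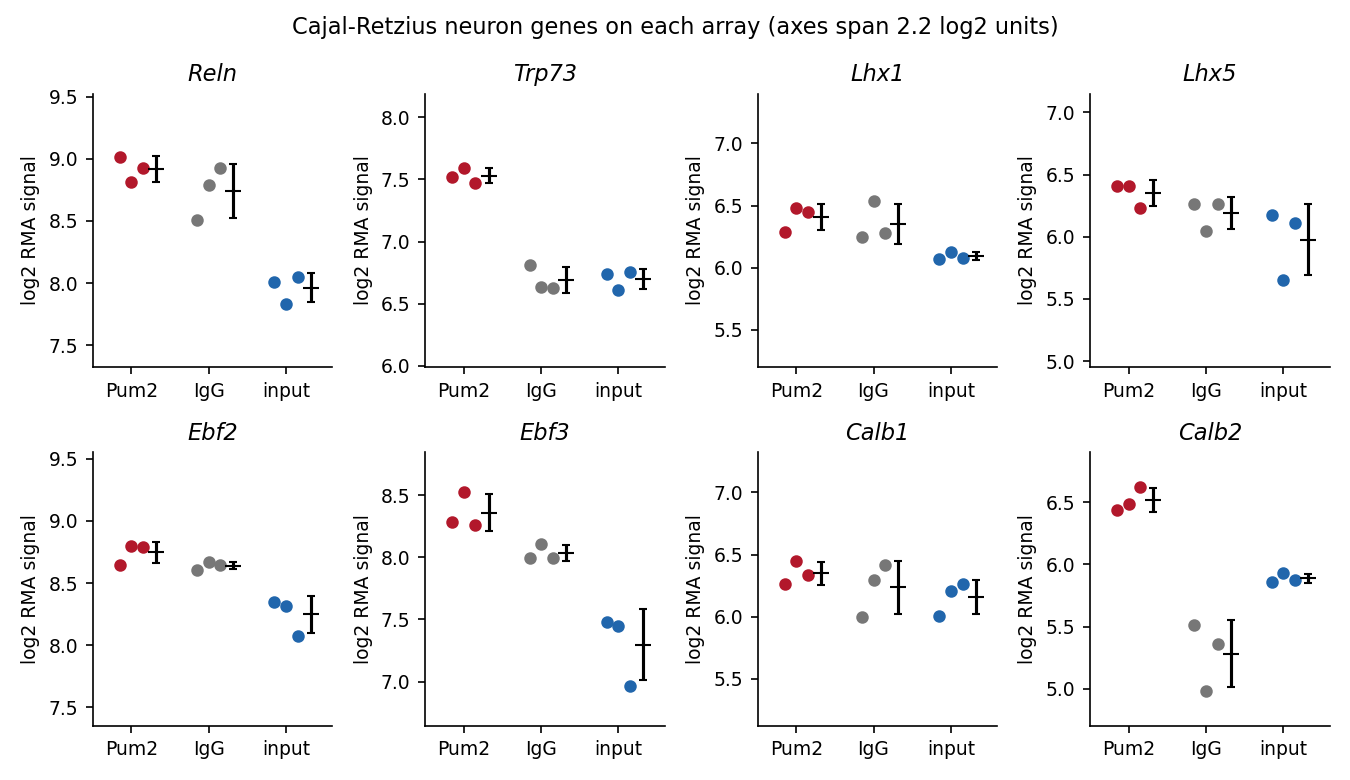
Log2 RMA signal of the 8 genes on each of the 9 arrays, with Pum2, IgG and input from left to right, 1 point per array and the mean ± SD of 3 arrays beside each group. Every vertical axis spans the same number of log2 units. The Pum2 arrays stand apart for Trp73 and Calb2, both precipitates stand above input for Reln, Ebf2 and Ebf3, and the groups of Calb1 overlap.

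Each array was most like the others of its group. Pearson r across genes, which are not independent replicates, was 0.994 to 0.996 within a group and 0.977 to 0.989 between groups. Markers of embryonic cortex were bright, with 18 of 19 measured at or above the median of all genes (6.08). So were 7 of the 8 members, all but Calb2. As a yardstick for the dim end, 95% of the 1390 olfactory and vomeronasal receptor genes on the array had a mean under 5.32. All 8 members had means above that level. They ran from 5.90 for Calb2 to 8.54 for Ebf2, and the IgG arrays of Calb2 averaged 5.28, under that level, with 1 of the 3 below it. The 4 genes nearest that end, Calb2, Lhx5, Calb1 and Lhx1, leave less room to see a decrease. The share of all calls that were higher was 63.0% in Pum2 over IgG and 62.3% in Pum2 over input. With arrays centred on their brighter genes it was 46.9% and 52.2%.

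Reln is the signal that these neurons send. Its log2 signal was 9.02, 8.81 and 8.92 in the Pum2 precipitates, 8.50, 8.79 and 8.93 in the IgG precipitates and 8.01, 7.83 and 8.05 in input. All 6 precipitates lay above the 3 input arrays, and the Pum2 and IgG arrays overlapped. The rise was 0.95 ± 0.12 in Pum2 over input (log2 difference ± SE, 3 arrays per group, 1.94-fold, limma adjusted p = 1.12e-04). IgG exceeded input by 0.78 ± 0.12 (1.72-fold, adjusted p = 0.00137). Against IgG, Pum2 differed by 0.18 ± 0.12 (adjusted p = 0.303), with a 95% interval of -0.08 to 0.43. By its difference in IgG over input, Reln ranked 164 of the 22180 genes, highest first.

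Trp73 encodes p73, a p53-family transcription factor on which the survival of Cajal-Retzius neurons depends. Its signal was 7.51, 7.59 and 7.47 with Pum2, 6.82, 6.64 and 6.63 with IgG and 6.74, 6.61 and 6.76 in input. The 3 Pum2 arrays lay wholly above the other 6, which overlapped among themselves. Trp73 rose by 0.83 ± 0.08 in Pum2 over IgG (1.78-fold, adjusted p = 5.03e-05) and by 0.83 ± 0.08 in Pum2 over input (1.77-fold, adjusted p = 3.04e-05). IgG differed from input by -0.01 ± 0.08 (adjusted p = 0.965), with a 95% interval of -0.19 to 0.17. The difference of Trp73 from IgG was larger than that of 98.1% of all genes. Its call held under all 17 alternative settings, with differences from IgG of 0.74 to 0.89.

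Calb2 encodes calretinin, long used to stain Cajal-Retzius neurons and also found in interneurons of the later cortex. Its signal was 6.44, 6.49 and 6.63 with Pum2, 5.51, 4.98 and 5.36 with IgG and 5.86, 5.93 and 5.87 in input. The 3 groups did not overlap, with Pum2 highest, input in the middle and IgG lowest. Calb2 rose by 1.23 ± 0.12 in Pum2 over IgG (adjusted p = 5.56e-05, 95% interval 0.96 to 1.51). With the IgG array under 5.32 raised to that level, the difference was 1.12, or 2.17-fold, where the measured means give 2.35-fold. The 2.17-fold value does not allow for the spread between arrays and is no lower limit. Without IgG array 2 the difference was 1.08. Calb2 rose by 0.63 ± 0.12 in Pum2 over input (1.55-fold, adjusted p = 0.00247). In IgG over input it fell by 0.60 ± 0.12 (adjusted p = 0.00728), or 1.41-fold lower with the IgG array raised in the same way. All 3 calls held under the 16 alternatives that kept the gene, and Calb2 dropped out where dim genes were left out of the test.

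Calb1, which encodes calbindin, a relative of calretinin, passed the test in no comparison. Its signal was 6.26, 6.45 and 6.33 with Pum2, 5.997, 6.293 and 6.417 with IgG and 6.01, 6.20 and 6.26 in input, and the groups overlapped. Pum2 differed from IgG by 0.11 ± 0.12 (adjusted p = 0.532, 95% interval -0.15 to 0.37) and from input by 0.19 ± 0.12 (adjusted p = 0.256). The difference of IgG from input was 0.08 ± 0.12 (adjusted p = 0.713). Calbindin and calretinin genes can be set against each other within each array. The value of Calb1 minus that of Calb2 was -0.29 to -0.04 in the Pum2 precipitates, against 0.49 to 1.31 in the IgG precipitates and 0.15 to 0.39 in input. The groups did not overlap, and Pum2 differed from IgG by -1.12, a value that rests on the dim IgG signal of Calb2 (exact permutation test, two-sided, p = 0.1, the smallest that 3 against 3 arrays can give, and 0.15 adjusted over 9 such tests).

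Ebf2 and Ebf3 encode early B-cell factors, helix-loop-helix transcription factors expressed in Cajal-Retzius neurons and their hem origin. Ebf2 had 8.65, 8.80 and 8.79 with Pum2, 8.61, 8.67 and 8.64 with IgG and 8.35, 8.32 and 8.08 in input. Ebf3 had 8.29, 8.53 and 8.26 with Pum2, 7.99, 8.11 and 7.99 with IgG and 7.48, 7.45 and 6.97 in input. For both genes the input arrays were the lowest, and for Ebf3 each Pum2 array was also above each IgG array. Against input, Ebf2 rose by 0.50 ± 0.09 with Pum2 (1.41-fold, adjusted p = 0.00138) and by 0.39 ± 0.09 with IgG (1.31-fold, adjusted p = 0.0122). Ebf3 rose by 1.06 ± 0.14 with Pum2 (2.08-fold, adjusted p = 1.65e-04) and by 0.73 ± 0.14 with IgG (1.66-fold, adjusted p = 0.00439). The lowest input value of both genes came from replicate 3, and both genes passed both tests without it.

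Against IgG, Ebf2 differed by 0.11 ± 0.09 (adjusted p = 0.425, 95% interval -0.09 to 0.30) and Ebf3 by 0.32 ± 0.14 (adjusted p = 0.103, 95% interval 0.02 to 0.63). The difference of Ebf3 passed under 3 of 17 alternatives, namely with the 2 groups fitted alone, with dim genes left out, and without input array 3 (adjusted p = 0.0241 to 0.296 over all 17). Ebf2 minus Ebf3 was 0.27 to 0.53 in the Pum2 precipitates, 0.56 to 0.65 in the IgG precipitates and 0.87 to 1.11 in input, with no overlap (exact permutation p = 0.1 for each pair of groups, 0.15 adjusted), and a difference between the 2 genes did not pass a test that cannot go lower with 3 arrays. A second row of the table that names Ebf2 was dim, with 4.27 to 4.58 on the 9 arrays. It differed by -0.11 in Pum2 over IgG, 0.06 in Pum2 over input and 0.17 in IgG over input (adjusted p = 0.35, 0.674 and 0.221 with every row tested), so the 2 rows do not give the same calls.

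Lhx1 and Lhx5 encode LIM-homeodomain transcription factors. Both are found in Cajal-Retzius neurons and in the diencephalon, and Lhx5 is needed for the normal distribution of these neurons in the mouse. Lhx1 had 6.28, 6.48 and 6.45 with Pum2, 6.25, 6.54 and 6.28 with IgG and 6.07, 6.13 and 6.08 in input. Every precipitate was above every input array, and the 2 kinds of precipitate overlapped. Lhx1 rose by 0.31 ± 0.09 in Pum2 over input (1.24-fold, adjusted p = 0.0260), and of the members' calls this alone was lost under any alternative. It held under 11 of 17 alternatives and was lost with quantile normalization run again (0.26), with arrays centred on brighter genes (0.24), and without Pum2 array 2 or 3 or input array 1 or 3 (adjusted p = 0.00874 to 0.0893 over all 17). Its differences were 0.26 ± 0.09 in IgG over input (adjusted p = 0.0861) and 0.05 ± 0.09 in Pum2 over IgG (adjusted p = 0.751, 95% interval -0.16 to 0.26).

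Lhx5 had 6.41, 6.41 and 6.23 with Pum2, 6.26, 6.04 and 6.27 with IgG and 6.17, 5.65 and 6.11 in input. The Pum2 arrays lay above input, with a difference of 0.37 ± 0.14 that missed the threshold (adjusted p = 0.0576, and 0.0219 to 0.168 over the alternatives, under 4 of which it passed). Its differences from IgG and of IgG from input were 0.16 ± 0.14 and 0.21 ± 0.14 (adjusted p = 0.434 and 0.339). Lhx1 minus Lhx5 overlapped between all groups, with exact permutation p of 0.5 to 0.8. A further row of the table names Lhx1 together with Lhx1os, a transcript of the same locus, and was not used for Lhx1. It went the other way, with 5.78, 5.66 and 5.97 in Pum2, 6.01, 6.13 and 6.01 in IgG and 6.54, 6.91 and 6.55 in input. Against input, that row fell by 0.86 ± 0.12 with Pum2 and by 0.62 ± 0.12 with IgG (adjusted p = 9.28e-04 and 0.0140, with every row tested).

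**Figure D2:**
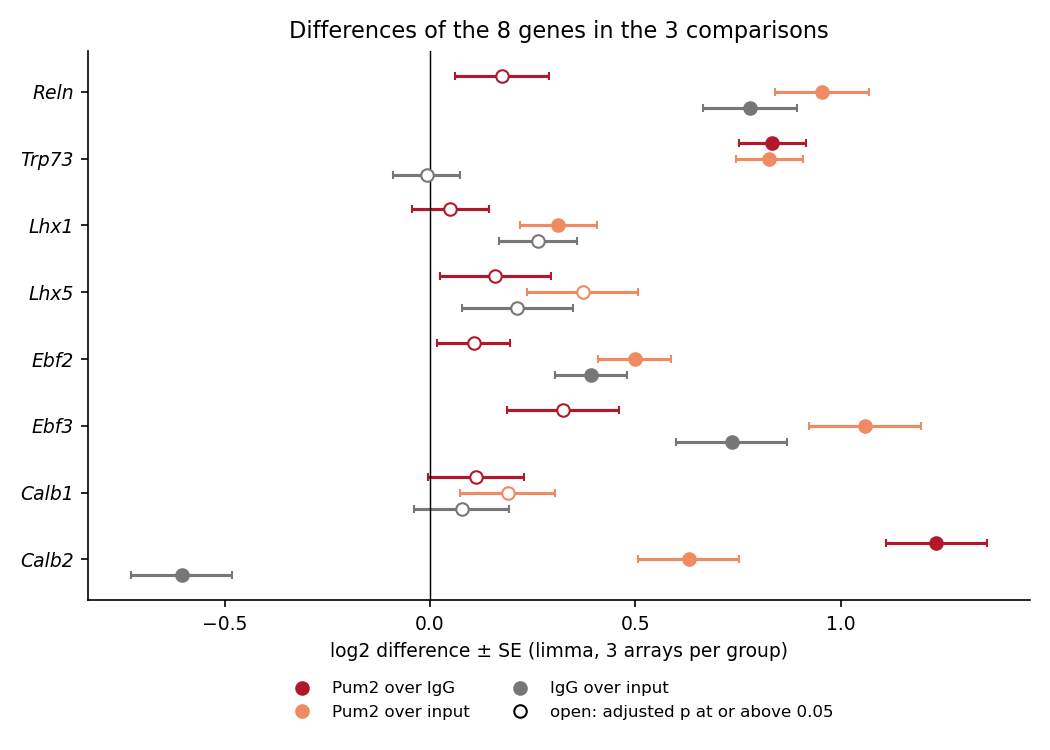
Log2 differences of the 8 genes (horizontal axis) with their SE in the 3 comparisons, with filled points where the limma adjusted p is under 0.05. In Pum2 over IgG the filled points are Trp73 at 0.83 and Calb2 at 1.23, and in IgG over input Calb2 is the filled point below 0, at -0.60.

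Ordered by the difference from IgG, the members ran Calb2, Trp73, Ebf3, Reln, Lhx5, Calb1, Ebf2 and Lhx1. From Reln down to Lhx1, neighbours were closer to each other than the SE of either. Ordered by the difference from input in the Pum2 precipitate, they ran Ebf3, Reln, Trp73, Calb2, Ebf2, Lhx5, Lhx1 and Calb1. Calb2 had the lowest place in IgG over input and the highest in Pum2 over IgG. Reln and Ebf3 led IgG over input, where they stood above 99.3% and 99.1% of all genes.

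**Figure D3:**
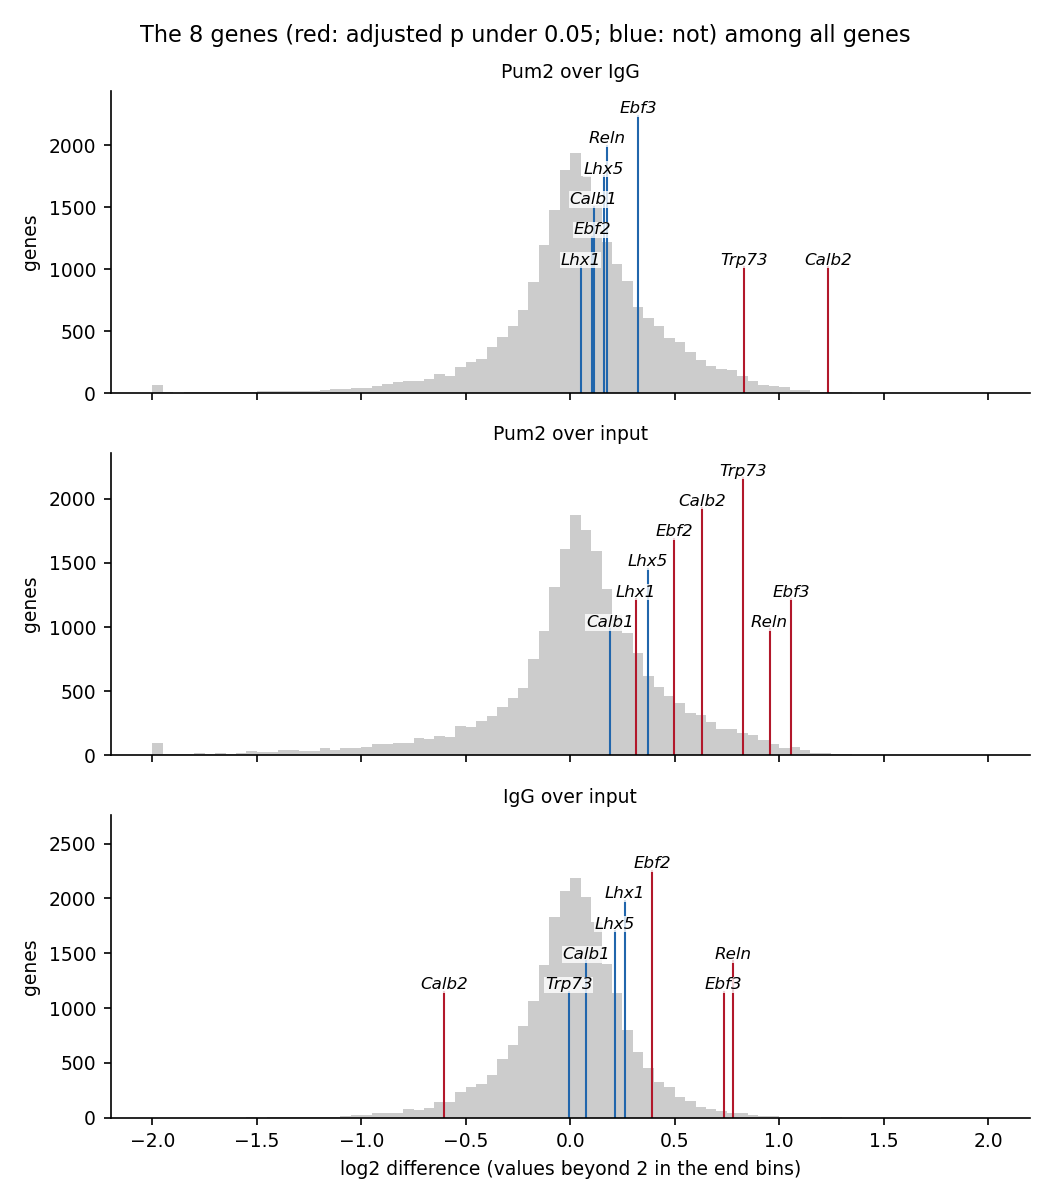
Histograms of the log2 difference of all 22180 genes in each comparison (number of genes per bin), with vertical lines at the 8 members, red where the adjusted p is under 0.05. Against IgG, 6 members sit in the central mass between 0.05 and 0.32 and 2 in the upper tail, while in Pum2 over input all 8 lie above the median of all genes.

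Genes with the most similar pattern were sought by Pearson r over the 9 arrays among 10435 or 10436 named genes at or above the median signal. The arrays form 3 groups of 3, so r mostly carries the order of the groups. The nearest to Trp73 were Sall1 (r = 0.999), Mrtfa (0.993) and Fzr1 (0.991), and 1293 genes had an r over 0.9 with it. The nearest to Calb2 were Wdr18 (0.994), Selenos (0.994) and Trim32 (0.990), with 677 genes over 0.9. The nearest to Reln were Nbea (0.983), Dip2c (0.983) and Huwe1 (0.982), with 455 genes over 0.9. Ebf2 and Ebf3 shared Chsy1 among their nearest (0.981 and 0.990), and Nr2f2 was near Ebf3 (0.988). For Lhx1, Lhx5 and Calb1 the counts over 0.9 were 24, 8 and 1.

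Other genes known from Cajal-Retzius neurons were listed by name, and 16 of 17 were measured, of which 3 also belong to the list of cortex markers. In Pum2 over IgG 6 rose and 1 fell, with a median of 0.14, where 19.4% of all genes were higher and 11.4% lower. With quantile normalization these counts were 3 and 2. Of the 16 genes, 14 were at or above the median signal. Among the 11090 such genes, tested alone, 4344 were higher and 2330 lower in this comparison. In Pum2 over input 11 rose and 0 fell (median 0.44), where 21.6% of all genes were higher and 13.1% lower. In IgG over input 9 rose and 0 fell (median 0.29), against 8.25% and 9.72% of all genes. Cacna2d2, a calcium channel subunit gene, rose by 0.42 ± 0.08 over IgG and by 0.91 ± 0.08 over input. Cxcr4, whose chemokine receptor holds Cajal-Retzius neurons below the meninges, rose by 0.40 ± 0.08 against IgG (adjusted p = 0.00486) and by 0.71 ± 0.08 against input (adjusted p = 1.04e-04). The zinc finger gene Zic1 rose by 0.36 ± 0.07 over IgG and 0.83 ± 0.07 over input, and the T-box gene Tbr1 by 0.34 ± 0.08 and 0.87 ± 0.08. All of these genes were also higher in IgG over input, Cacna2d2 by 0.49 ± 0.08, Cxcr4 by 0.31 ± 0.08, Zic1 by 0.47 ± 0.07 and Tbr1 by 0.53 ± 0.08.

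Nhlh2, a helix-loop-helix gene of early neurons, was the only gene of that list called lower in Pum2 over IgG in the main fit. Its signal was 7.02, 7.37 and 7.21 with Pum2, 7.61, 8.03 and 7.69 with IgG and 7.47, 7.47 and 7.56 in input. It fell by 0.57 ± 0.12 in Pum2 over IgG (1.49-fold lower, adjusted p = 0.00502), and its difference from input was -0.30 ± 0.12 (adjusted p = 0.0903). Of the nuclear receptor genes, Nr2f1 rose by 0.51 ± 0.08 in IgG over input and differed by -0.12 ± 0.08 in Pum2 over IgG (adjusted p = 0.278).

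Relatives and protein partners of the members were listed too, 27 of 28 measured. In Pum2 over IgG 3 rose and 2 fell (median 0.02), in Pum2 over input 5 rose and 2 fell (median 0.09), and in IgG over input 3 rose and 2 fell (median 0.05). Of all genes, 19.4% were higher and 11.4% lower in Pum2 over IgG. The shares were 21.6% and 13.1% in Pum2 over input, and 8.25% and 9.72% in IgG over input. With quantile normalization 4 fell in Pum2 over IgG. Ebf1, the founding gene of the early B-cell factors, had 8.55, 8.67 and 8.62 with Pum2, 8.81, 8.56 and 8.60 with IgG and 7.69, 7.70 and 7.46 in input. Against input it rose by 1.00 ± 0.10 with Pum2 and by 1.04 ± 0.10 with IgG (adjusted p = 2.66e-05 and 1.75e-04), and Pum2 differed from IgG by -0.04 ± 0.10 (adjusted p = 0.807). With Ebf2 and Ebf3, 3 early B-cell factor genes rose over input in both precipitates, and the fourth, Ebf4, differed from input by -0.18 ± 0.08 with Pum2 and -0.12 ± 0.08 with IgG (adjusted p = 0.139 and 0.372). Zfp521, a zinc finger gene whose protein binds early B-cell factors, rose by 0.81 ± 0.12 in Pum2 over input and by 0.69 ± 0.12 in IgG over input. Among LIM-only genes, whose products bind the same cofactor as Lhx1 and Lhx5, Lmo1 and Lmo3 rose in Pum2 over IgG by 1.06 ± 0.10 and 0.83 ± 0.08 (adjusted p = 3.26e-05 and 5.13e-05), and Lmo4 differed by -0.01 ± 0.12 (adjusted p = 0.968). Lhx9, a relative of Lhx1, fell by 0.40 ± 0.09 in Pum2 over IgG (adjusted p = 0.00610).

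On the receiving side of reelin, 30 of 32 listed genes were measured. In Pum2 over IgG 11 rose and 3 fell (median 0.10), in Pum2 over input 17 rose and 6 fell (median 0.27), and in IgG over input 5 rose and 2 fell (median 0.11). The balance in Pum2 over IgG depended on the scaling, with 7 higher and 6 lower after quantile normalization and 7 and 5 after centring on brighter genes. The receptors and the adaptor Dab1, which is phosphorylated when reelin binds, are named for their role and not for their values. The receptor gene Vldlr had 6.45, 6.80 and 6.67 with Pum2, 6.37, 6.03 and 6.38 with IgG and 6.28, 5.58 and 5.69 in input. Lrp8, the gene of the second reelin receptor, had 9.98, 10.16 and 9.95 with Pum2, 10.02, 10.25 and 10.26 with IgG and 9.72, 9.70 and 9.79 in input. Over input, Vldlr rose by 0.79 ± 0.18 and Lrp8 by 0.29 ± 0.09 (adjusted p = 0.00602 and 0.0298), while over IgG they differed by 0.38 ± 0.18 and -0.15 ± 0.09 (adjusted p = 0.146 and 0.276). Dab1 differed by 0.06 ± 0.08 in Pum2 over IgG and 0.17 ± 0.08 in Pum2 over input (adjusted p = 0.632 and 0.126).

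Below the receptors, the kinase gene Src, whose product can phosphorylate Dab1, had 8.38, 8.51 and 8.39 with Pum2, 7.38, 7.34 and 7.48 with IgG and 7.59, 7.25 and 7.52 in input. The Pum2 arrays stood apart from the rest, and against IgG Src rose by 1.03 ± 0.10 (2.04-fold, adjusted p = 4.23e-05). Against input it rose by 0.97 ± 0.10 (1.96-fold, adjusted p = 3.36e-05). Crk, an adaptor recruited by phosphorylated Dab1, rose by 0.64 ± 0.07 over IgG and 0.65 ± 0.07 over input. Pik3r1, a regulatory subunit of phosphoinositide 3-kinase, rose by 0.95 ± 0.08 in Pum2 over input, and by 0.63 ± 0.08 in IgG over input. In Pum2 over IgG, Pik3r1 rose by 0.32 ± 0.08 (limma adjusted p = 0.0108). Gsk3b, a kinase held in check by that pathway, rose by 0.67 ± 0.08 in IgG over input and differed by -0.05 ± 0.08 in Pum2 over IgG (adjusted p = 0.719). Rnf7, part of the ubiquitin ligase that removes active Dab1, had 7.41, 7.68 and 7.27 with Pum2, 8.31, 8.49 and 8.21 with IgG and 9.03, 9.02 and 8.89 in input. It fell by 0.88 ± 0.11 in Pum2 over IgG and by 1.53 ± 0.11 in Pum2 over input. Nde1, whose product works with dynein in dividing precursors, fell by 0.69 ± 0.10 in Pum2 over IgG and by 1.15 ± 0.10 in Pum2 over input. The counts of this list were read against the same backgrounds, 19.4% higher and 11.4% lower for Pum2 over IgG. For Pum2 over input they were 21.6% and 13.1%. Of its 30 genes, 29 were at or above the median signal. Among the 11090 such genes, tested alone, 4344 were higher and 2330 lower in Pum2 over IgG, and 4555 and 2699 in Pum2 over input. Those shares are larger than over all genes.

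**Figure D4:**
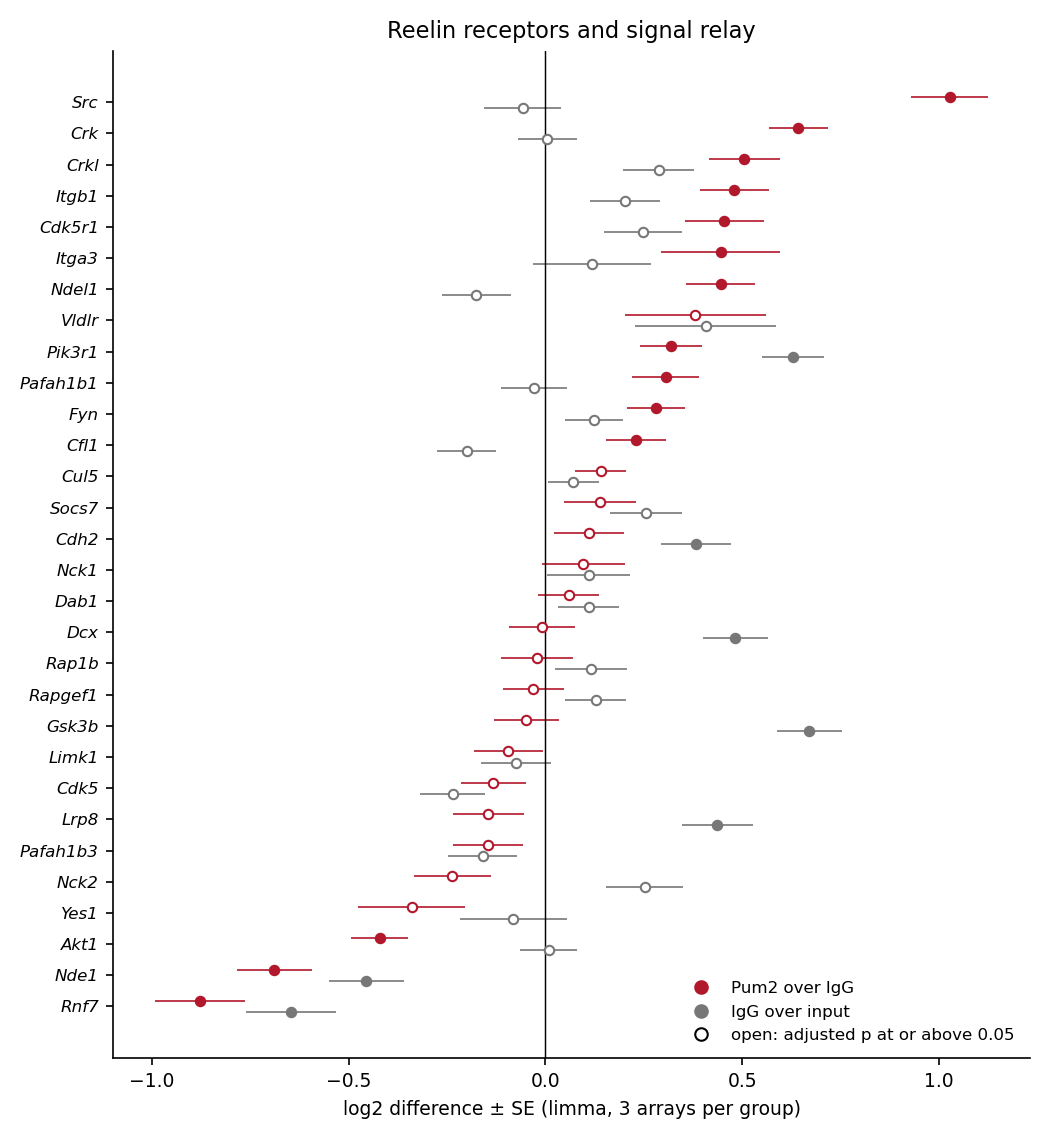
Log2 differences with their SE of 30 genes of reelin receptors and relay in Pum2 over IgG and IgG over input, filled where the limma adjusted p is under 0.05, sorted by the first. Src stands at the top with 1.03 and Rnf7 at the bottom with -0.88, and the receptor genes Vldlr and Lrp8 are open points in Pum2 over IgG.

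Markers of other cells were read beside the members, and their part in these differences was not tested. Of all genes, 21.6% were higher and 13.1% lower in Pum2 over input, and 19.4% and 11.4% in Pum2 over IgG. The shares of higher genes in the hem, ganglionic eminence and diencephalon lists in Pum2 over input were near or under that background. For meninges, which lie next to Cajal-Retzius neurons, 12 of 16 genes rose and 1 fell in Pum2 over input, and their mean signal was 7.67 to 7.73 in the Pum2 precipitates, 7.357 to 7.496 in the IgG precipitates and 7.23 to 7.26 in input. Cortex markers gave 13 higher and 3 lower of 19, with a mean signal of 9.83 to 9.95, 9.63 to 9.70 and 9.56 to 9.59 in the same order. Of these 2 lists, 13 of 16 and 18 of 19 genes were at or above the median signal. Among the 11090 such genes, tested alone, 4555 were higher and 2699 lower in Pum2 over input, and 4344 and 2330 in Pum2 over IgG. With quantile normalization, 10 meningeal genes were higher and 1 lower in Pum2 over input, and 9 cortex genes were higher and 3 lower. For the cortical hem, septum and choroid plexus, 2 of 20 rose and 0 fell in Pum2 over input. Their mean signal overlapped between the groups, at 6.11 to 6.54, 5.83 to 6.35 and 5.88 to 6.34, and for 11 of the 20 genes replicate 3 was the lowest in every group. Ttr, a choroid plexus gene chosen here after its values were seen, had 8.24, 6.91 and 5.69 with Pum2, 7.93, 6.26 and 5.29 with IgG and 8.72, 6.86 and 5.24 in input. For ganglionic eminence and interneurons, which can also express Reln, Calb1 and Calb2, 3 of 13 rose and 0 fell. Their mean was 5.82 to 5.91, 5.51 to 5.55 and 5.52 to 5.61, and 6 of the 13 lay under the dim-end level of 5.32, as did 2 of the 16 meningeal genes, 4 of the 20 hem genes and 5 of the 17 diencephalic genes. For thalamus and other diencephalon, 4 of 17 rose and 0 fell, with means of 5.97 to 6.07, 5.79 to 5.81 and 5.74 to 5.84. In Pum2 over IgG, the higher and lower genes numbered 6 and 1 for meninges, 8 and 2 for cortex, 3 and 0 for the hem list, 3 and 1 for the ganglionic eminence and 5 and 1 for the diencephalon. With the replicate numbers as a block, the hem list gave 7 and 0 in Pum2 over IgG, and 5 and 1 in Pum2 over input. The mean signal of the 8 members themselves was 7.36 to 7.44 in the Pum2 precipitates, 6.99 to 7.06 in the IgG precipitates and 6.77 to 6.84 in input.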

How the data were processed

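Immunoprecipitated RNA and input RNA were amplified, labelled and hybridised, per the labels' protocols. Per the submitters' processing notes, the deposited log2 values were made with RMA in Affymetrix Expression Console. The sources used here give neither its version nor a genome build. RMA corrects background, normalizes arrays and summarises probes, and gives no detection call.

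Of 41345 rows on 9 arrays, 23521 carried 1 symbol in the platform annotation, 1814 several and 16010 are unnamed here. The row with the highest mean was kept per gene, which left 22180 genes. The Entrez identifiers of all 8 members had the same symbol in RefSeq (GRCm38.p6). No sequence is printed, because transcript sequences were not among the sources used here. Pumilio motifs in the transcripts of the members were therefore not searched for.

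Tests used R 4.3.3 and limma 3.58.1, with 1 fit of 9 arrays with 3 group means, no replicate block and the default prior, adjusted by Benjamini and Hochberg over all genes and called below 0.05 with no fold threshold. Intervals are 95% intervals of the fit. Values after ± are the SE of a difference. P-values measure the spread between arrays labelled as biological replicates. The fit was also run on simulated data with independent noise for each gene and array, which does not test the calls made here. Differences between relatives within an array were compared by exact permutation (scipy 1.17.1).

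Named genes were the 8 members, the called genes with the largest moderated t of each list, at most 4 in a comparison, the brightest genes of tissue lists, and the 3 genes nearest each member. The reelin receptors, Dab1 and Lhx1os were added for their role, and Ebf4, Lmo4, Igf2 and Ttr after their values were seen. The folds of Calb2 with a raised IgG signal were also added after the data were seen. For them, each IgG array was raised to at least the 95th percentile of the receptor genes. Members and lists were chosen with earlier results of these data known, so counts over lists are descriptions.

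The fit was varied by a replicate block, by keeping only the 2 groups compared, only genes at or above the median, a trended robust prior, quantile normalization, centring on brighter genes, the mean of a gene's rows, every row tested, and leaving out each array.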

Additional observations from a re-analysis of the deposited data

How the results depend on the processing

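Each member in each comparison was recomputed under 17 alternatives (16 for Calb2). Of these values, 379 kept their direction and their side of the threshold, 8 newly passed it, 6 no longer passed it and 12 changed sign, all of the last with an adjusted p above 0.05 before and after. The sign changes in Pum2 over IgG were Calb1 without the first IgG array (-0.00721, over a range of -0.00721 to 0.203 when arrays were left out), Lhx1 without that array (-0.00279, range -0.00279 to 0.143) or with centring on brighter genes (-0.0448), and Ebf2 with quantile normalization (-0.000539) or the mean of its rows (-0.00422). In IgG over input they were Calb1 without the third IgG array (-0.0137, range -0.0137 to 0.196), and Trp73 with quantile normalization (1.248e-05), centring (0.0168) and 4 arrays left out in turn (range -0.0684 to 0.0250). The number of members lower in IgG over input went to 0 where dim genes were left out, because Calb2 was then not tested. With every row tested, 6481 rows were lower in Pum2 over IgG and 6601 in Pum2 over input, where 2519 and 2895 genes were lower before. Leaving out arrays turned the sign of Lhx1 minus Lhx5, which ranged from -0.198 to 0.0569 in Pum2 over IgG, from -0.167 to 0.123 in Pum2 over input and from -0.116 to 0.232 in IgG over input.

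The labels number the replicates alike in each group. Deviations of same-numbered arrays from their group means correlated by 0.00154 to 0.135 (median 0.0932), against -0.130 to 0.0407 (median -0.0326) for arrays of other numbers, and an array matched its own number best in 16 of 18 cases. This is a hint from the data that same-numbered samples share something. The numbers were not treated as pairs in the main fit, because the labels do not say what they mark. Of the 9 correlations, 3 were over 0.1, and their small size does not exclude pairing. With the number as a replicate block, 4344 genes were higher and 2521 lower in Pum2 over IgG, against 4296 and 2519 without it. Among the members the block moved 1 call, Lhx5 in Pum2 over input (0.37, adjusted p = 0.0440). Of the recomputed counts over gene lists, 94 moved by over 1.5 times and 722 did not. With the replicate block, hem genes higher in Pum2 over IgG numbered 7 of 20, against 3 without it, and in Pum2 over input 5, against 2. Signal close to the dim end limits what can be said of decreases of Calb1, Calb2, Lhx1 and Lhx5.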

Other observations

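Calb2 was not alone in lying lowest with IgG and highest with Pum2. Sst, which encodes the peptide somatostatin of a class of interneurons, had 8.16, 8.27 and 8.76 with Pum2, 6.83, 6.75 and 7.33 with IgG and 7.505, 7.722 and 8.004 in input. It rose by 1.42 ± 0.20 in Pum2 over IgG and 0.65 ± 0.20 in Pum2 over input, and fell by 0.77 ± 0.20 in IgG over input (limma adjusted p = 3.95e-04, 0.0269 and 0.0213). Lmo1 had 9.21, 9.49 and 9.41 with Pum2, 8.29, 8.28 and 8.36 with IgG and 8.69, 8.93 and 8.92 in input, and fell by 0.54 ± 0.10 in IgG over input (adjusted p = 0.00354). Of the other genes of that list, Dlx5, a homeobox gene of the ganglionic eminence, rose by 1.14 ± 0.22 in Pum2 over IgG (adjusted p = 0.00259). Slc32a1, the gene of the vesicular GABA transporter, had 5.58, 5.53 and 5.72 with Pum2, 5.31, 5.11 and 5.48 with IgG and 5.51 on each input array, and rose by 0.31 ± 0.10 in Pum2 over IgG (adjusted p = 0.0351). Its IgG arrays averaged 5.30, under the dim-end level of 5.32, so the size of this rise rests on a dim signal. Gad2, a gene of GABA synthesis, fell by 0.41 ± 0.11 (adjusted p = 0.0201). The likeness of Calb2, Sst and Lmo1 was noticed after their values were seen.

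Among meningeal genes, Dcn, which encodes a matrix proteoglycan, rose by 0.81 ± 0.09 and the pericyte receptor gene Pdgfrb by 0.66 ± 0.09 in Pum2 over IgG. Igf2, the gene of that list called lower, fell by 0.38 ± 0.12 in Pum2 over IgG and by 0.48 ± 0.12 in Pum2 over input (limma adjusted p = 0.0301 and 0.00848). Col1a2, a collagen gene, rose by 0.72 ± 0.13 in IgG over input and by 0.81 ± 0.13 in Pum2 over input. Among diencephalic genes, Tcf7l2, a Wnt effector of the thalamus, rose by 0.52 ± 0.08 in Pum2 over IgG and by 0.65 ± 0.08 in Pum2 over input. In the list of the hem and its neighbours, Dbx1, a homeobox gene of the septum and the pallial border from which some Cajal-Retzius neurons come, rose by 0.54 ± 0.15 in Pum2 over IgG and by 0.52 ± 0.15 in Pum2 over input (adjusted p = 0.0201 and 0.0204).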
